A study of Homo sapiens with 6 samples.

Results

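The miRNAs described here are those reported to reach the cell without the nuclear Drosha cut, measured in the human colorectal carcinoma line HCT-116 after transient transfection with 1 of 2 variants of Uc283+a, a long noncoding RNA. They were taken by name: a human probe counted as a member when its name, without species prefix, arm, star, locus number or precursor suffix, was 1 of 18 names. These were 12 mirtron names (miR-877, miR-1224 to miR-1229, miR-1233, miR-1234 and miR-1236 to miR-1238) and 6 further names (miR-320, miR-320a, miR-320b, miR-320c, miR-320d and miR-484). All 18 names were present, and the rule found 35 of the 1741 human miRNA probes on the array, 23 with mirtron names and 12 for miR-320 and miR-484. The rule reads names and no measured value, though the names were proposed with results of these data known.

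The arrays were 1-colour, with 1 sample of total RNA each. Cells received variant 1 of Uc283+a, with a run of 8 T in its sequence (2 arrays), variant 2, with a run of 9 T (2 arrays), or the empty vector, called mock (2 arrays). Uc283+a is transcribed from an ultraconserved region, and the study concerns its action on the processing of primary miRNA transcripts. All 6 samples come from 1 cell line under transient transfection, and no label says that the arrays of a group came from separate cultures, so a p-value here speaks only of how far these arrays scatter, and that scatter may be technical. In RNA from bulk cells, fewer cells making a miRNA and less of it per cell cannot be told apart.

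Most miRNAs are cut in turn by a pair of enzymes: the Microprocessor, made of Drosha and DGCR8, crops a hairpin out of the primary transcript in the nucleus, and Dicer then cuts off the loop in the cytoplasm. A mirtron is a short intron that folds into a hairpin after splicing and debranching, so that the spliceosome takes the place of Drosha. The precursors of miR-320 and miR-484, as known from mouse cells, start at the first base of their transcript, carry the cap that RNA polymerase II adds, and go straight to Dicer. The label holds less firmly for some names, since miR-1225 and miR-1228 have been described as intronic hairpins made without splicing but with Drosha, and miR-320b, miR-320c and miR-320d are placed here by their likeness to miR-320.

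The mirtron label was set against the hairpin sequences in RefSeq (GRCh38.p14), because an intron that is itself the hairpin must begin with the GU of the 5′ splice site and end with the AG of the 3′ splice site. All 12 hairpins used for the mirtron names, 2 of them for miR-1233, began with GU and ended with AG. All 12 lay inside another gene by position, with strand not compared. So did the miR-320 hairpins MIR320B2, MIR320C1 and MIR320C2, and the share over all hairpins was not counted. Of the 1560 human hairpins used here, which are not all of RefSeq's, 36 had both ends, or 2.31%. None of the 7 hairpins used for miR-320 and miR-484 had both. A hairpin catalogued as a whole intron has both ends by definition, so the count does not test the label. The hairpins of miR-1225 and miR-1228, described as made with Drosha, had both ends too, so the ends do not show independence of Drosha. Hairpins behind probes whose values are given by array are shown here, with the hairpin's first and last bases in capitals.
MIR1226, chr3:47849555-47849629, plus strand, inside DHX30: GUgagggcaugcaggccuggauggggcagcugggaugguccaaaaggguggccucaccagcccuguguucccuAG
MIR1225, chr16:2090195-2090284, minus strand, inside PKD1: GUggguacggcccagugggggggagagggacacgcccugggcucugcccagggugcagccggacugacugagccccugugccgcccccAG
MIR1227, chr19:2234062-2234149, minus strand, inside PLEKHJ1: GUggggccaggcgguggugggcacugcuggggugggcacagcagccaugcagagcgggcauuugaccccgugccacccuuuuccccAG
MIR1229, chr5:179798278-179798346, minus strand, inside MGAT4B: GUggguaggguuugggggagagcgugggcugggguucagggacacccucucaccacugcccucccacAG
MIR877, chr6:30584332-30584417, plus strand, inside ABCF1: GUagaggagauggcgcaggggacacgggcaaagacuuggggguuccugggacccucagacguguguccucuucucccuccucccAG

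The miR-484 hairpin and 1 of the miR-320c hairpins are shown for contrast, with the mature miRNA in capitals. It lies near the 5′ end in miR-484 and on the 3′ arm in miR-320c. The gene named for MIR320C1 spans it by position only, since strand was not compared, so it need not be the host gene.
MIR484, chr16:15643294-15643372, plus strand: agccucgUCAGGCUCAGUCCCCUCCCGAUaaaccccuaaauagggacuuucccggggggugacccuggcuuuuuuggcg
MIR320C1, chr18:21683518-21683589, plus strand, inside ABHD3: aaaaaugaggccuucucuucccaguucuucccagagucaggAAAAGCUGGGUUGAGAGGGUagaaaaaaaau

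The mature sequences show how the groups differ as targeting molecules and how far the probes can tell them apart. In these lines the seed, bases 2 to 8, which pairs with target messages, is in capitals. A mature sequence from RefSeq was used for 20 of the 23 mature-named member probes. Older names without an arm were assigned by the older naming custom (miR-1226 is the 3p arm and miR-1226* the 5p arm). The probe sequences themselves were not used here.
miR-320b: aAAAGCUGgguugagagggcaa
miR-320c: aAAAGCUGgguugagagggu
miR-320d: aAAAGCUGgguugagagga
miR-484: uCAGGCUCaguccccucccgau
miR-1225-3p: uGAGCCCCugugccgcccccag
miR-1226-3p: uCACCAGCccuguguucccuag
miR-1226-5p: gUGAGGGCaugcaggccuggaugggg
miR-1227-3p: cGUGCCACccuuuuccccag
miR-1229-3p: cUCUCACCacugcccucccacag
miR-877-5p: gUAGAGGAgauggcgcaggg

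The 20 mature sequences held 18 distinct seeds. The seed AAAGCUG was shared by miR-320b, miR-320c and miR-320d, and each other sequence among the 20 had a seed of its own. No sequence of miR-320 or miR-320a was compared. From the 5′ end, miR-320b and miR-320c share 19 bases, and each shares 18 with miR-320d, so a probe named for one can hybridise with another and their signals are uncertain as separate measurements. The mirtron arms were rich in G and C, with a median GC content of 66.7% (range 59.1 to 77.3% over 16 probes), against 50.0% (47.4 to 63.6%) over the 4 matched probes of miR-320 and miR-484.

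All signals are on the log2 scale as the authors normalized them, so a difference of 1 is a doubling. A probe is called above the random-sequence level on an array when it exceeded the 95th percentile of the array's own 38 probes of random sequence, which lay between 6.75 and 7.27. Mock replicate 1 and variant 2 replicate 2 stood apart from the rest: over the tested probes above the level, the SD of the log2 difference was 0.667 to 0.837 for pairs that held either of them and 0.463 to 0.576 for the other pairs. Replicate numbers were given here in array order within each group and pair no arrays. For the identity of the cells, 4 of 19 probes for colorectal epithelial markers were above the level on all 6 arrays (miR-200b, miR-200c, miR-21 and miR-429), and those for miR-141, miR-192, miR-194, miR-200a and miR-215 were not. For other tissues the counts were 1 of 10 haematopoietic probes, 1 of 14 muscle probes, 4 of 10 neural probes, 1 of 2 liver probes and 2 of 10 fibroblast probes. The 4 small nucleolar RNA probes were lower in the variants than in mock by 0.31 to 0.74 on the log2 scale.

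Mature-named members gave signal nearly throughout. Of the 23, 22 were above the level on all 6 arrays, 16 of 17 with mirtron names and 6 of 6 for miR-320 and miR-484, against 22.9% of the 1149 mature-named and ultraconserved-region probes tested. The exception was hsa-miR-1225-5p, the upstream arm of the hairpin inside PKD1, above the level on 3 arrays. High detection was not particular to the members: 9 of 10 mature-named probes derived from transfer RNA, Y RNA and vault RNA were above it on all 6 arrays. So were 34 of 81 for the canonical miRNAs listed below and 2 of 7 derived from small nucleolar RNA. Of the 12 precursor-named members, whose names end in P, 4 were above it on all 6 arrays: hsa-mir-320-P, hsa-miR-320a-P, hsa-mir-484-P and hsa-miR-1233-P. Base composition moved with detection over the array. Among probes whose names exactly match a sequence used here, 15.9% of 82 with a GC content under 40% were above the level. The share was 12.2% of 115 from 40 to under 50%, and 20.7% of 150 from 50 to under 60%. It was 23.7% of 76 from 60 to under 70%, and 33.3% of 39 with 70% or more. The part of GC content in the members' detection was not tested. Because labelling used a random octamer primer on total RNA, signal at a mature-named probe can also come from longer RNA with the same sequence, and a mirtron's arms are part of its host gene's unspliced transcript.

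**Figure D1:**
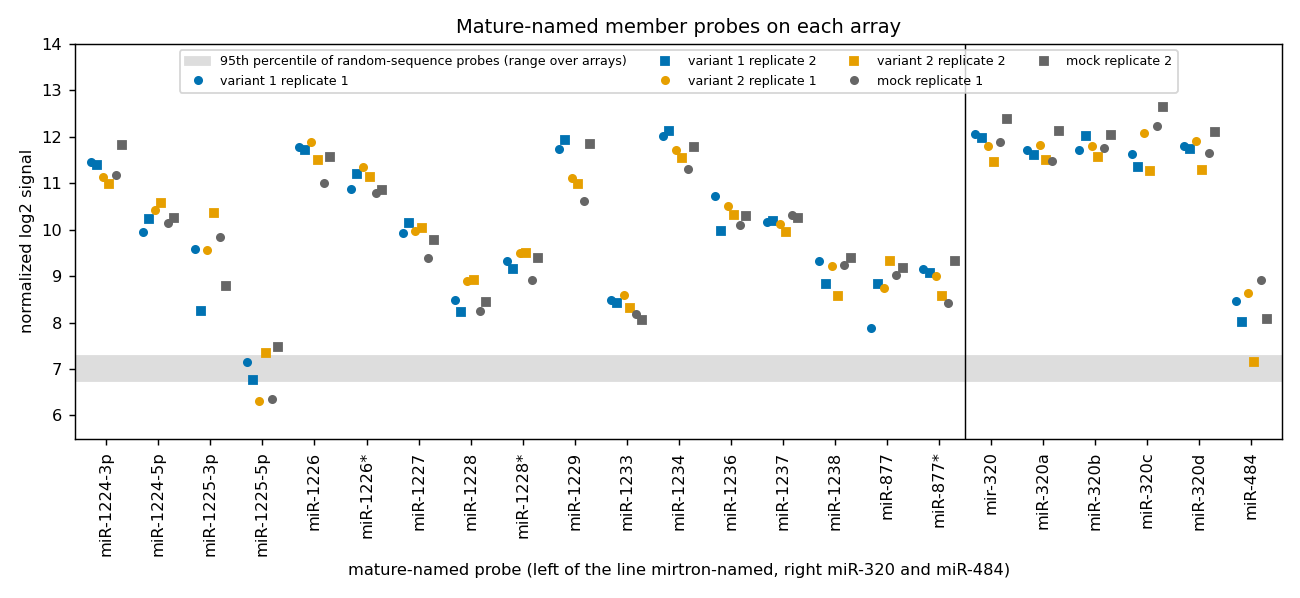
Normalized log2 signal (vertical axis) of the 23 mature-named members on each of the 6 arrays, variant 1 in blue, variant 2 in orange and mock in grey. The grey band spans the arrays' random-sequence levels, 6.75 to 7.27, and all members but hsa-miR-1225-5p exceeded their array's own level on all 6 arrays.

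Among members above the level on all arrays, the span from the lowest to the highest of the 6 arrays had a median of 0.76 over 17 mirtron-named probes and 0.91 over 9 probes of miR-320 and miR-484, against 1.00 over the 389 tested probes above it. The narrowest span was that of hsa-miR-1233-P (0.32) and the widest that of hsa-miR-1225-3p (2.11). Over the 26 members above the level, the SD of the log2 difference between 2 arrays was 0.423 to 0.475 within a group and 0.314 to 0.652 between groups, so the ranges overlapped.

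With both variants set against mock, the medians of the 2 groups of members lay on opposite sides of 0, and no member passed the test. Of the 23 mirtron-named probes 16 were higher in the variants, with a median log2 difference of 0.21, where 49.4% of the 1773 tested probes were higher and their median was -0.01. Of the 12 probes of miR-320 and miR-484, 9 were lower, with a median of -0.17, where 50.6% of tested probes were lower. All 6 mature-named ones were among them. Of these, 5 carry miR-320 names, and the signals of miR-320b, miR-320c and miR-320d are uncertain as separate measurements. In limma, with Benjamini-Hochberg adjustment over the 1773 probes, 0 members and 0.0% of all probes passed. At an unadjusted p under 0.05 stood 1 member, hsa-miR-320c, against 4.62% of tested probes. When limma's prior followed the mean signal, 1 probe passed (hsa-miR-1260b), which is no member. The arrays of the variants and of mock did not overlap for 5 members higher in the variants and 2 lower, against 6.54% and 6.71% of tested probes.

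Each of these medians leaned on a different mock array. The 16 mature-named mirtron probes above the level had a median deviation from their own 6-array means of 0.13 and 0.04 with variant 1, 0.14 and -0.01 with variant 2, and -0.24 and 0.02 in mock. The 6 mature-named probes of miR-320 and miR-484 had 0.02 and -0.05 with variant 1, 0.14 and -0.47 with variant 2, and -0.04 and 0.39 in mock. The mirtron-named probes were thus low on mock replicate 1, while the miR-320 and miR-484 probes were high on mock replicate 2 and low on variant 2 replicate 2. The canonical list and all tested probes moved the same way on the last 2 of these arrays. They had 0.21 and 0.09 on mock replicate 2, and -0.49 and -0.19 on variant 2 replicate 2. On mock replicate 1 they had 0.28 and -0.07. Without mock replicate 1, 14 of 23 mirtron-named probes were higher and their median was 0.06. Without mock replicate 2, 6 of 12 miR-320 and miR-484 probes were higher and their median was -0.03. Among the 6 mature-named ones, 3 were then higher. Without variant 2 replicate 2 the medians were 0.21 for mirtron names and -0.06 for miR-320 and miR-484.

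**Figure D2:**
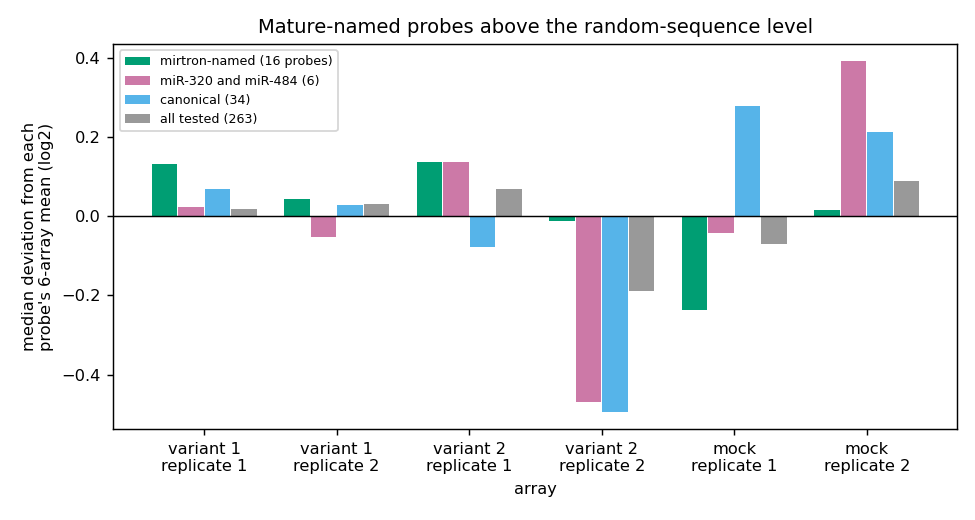
Median deviation of each list from its probes' own 6-array means (log2, vertical axis) on each array, for mature-named probes above the random-sequence level. Mirtron-named probes (16, green) were lowest on mock replicate 1, at -0.24, and probes of miR-320 and miR-484 (6, pink) lowest on variant 2 replicate 2, at -0.47, beside canonical (34, blue) and all tested probes (263, grey).

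Other miRNAs were set beside the members as lists. Canonical, Microprocessor-made miRNAs (the let-7, miR-15/16, miR-17, miR-29, miR-30 and miR-200 groups, miR-21 and others) had 85 probes. Of these, 67 were lower in the variants, with a median of -0.28. The arrays did not overlap for 17 lower and 1 higher, against 6.71% and 6.54% of tested probes. Only 35 of the 85 were above the level on all 6 arrays, 30 of them lower, with a median of -0.28. The median of all 85 ran from -0.18 without variant 2 replicate 2 to -0.37 without mock replicate 2. The names derived from transfer RNA, Y RNA and vault RNA had 14 of 18 probes higher (median 0.52), and those derived from small nucleolar RNA had 8 of 10 lower (median -0.27). The miR-320 and miR-484 median thus lay nearer to that of the canonical list than the mirtron median did. The difference between the lists was not tested, nor was the part that the small nucleolar RNA probes' lower signal or the 2 arrays that stood apart have in it.

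**Figure D3:**
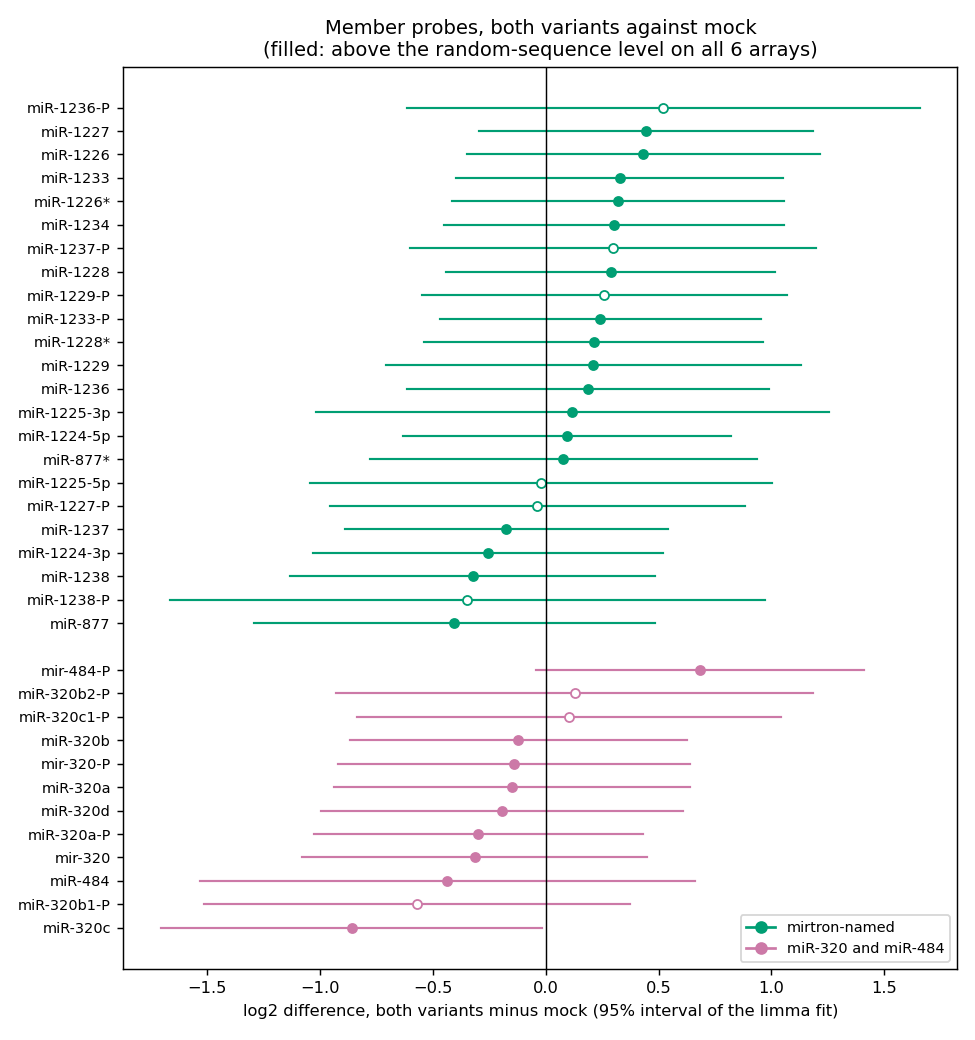
Log2 difference of both variants minus mock (horizontal axis) for all 35 members, with the 95% interval of the limma fit as a bar, mirtron names in green above and miR-320 and miR-484 in pink below. Filled points were above the random-sequence level on all 6 arrays, and only the interval of hsa-miR-320c, -1.70 to -0.02, leaves out 0.

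The lowest member was hsa-miR-320c, of a family known to repress beta-catenin in colon cells through miR-320a. It gave 11.63 and 11.36 with variant 1 and 12.09 and 11.26 with variant 2, against 12.24 and 12.65 in mock. All 4 variant arrays lay below both mock arrays, with variant 2 replicate 1 close to the lower one. The difference was -0.86 (SE 0.370, 95% interval -1.70 to -0.02). In limma its p was 0.0465 before adjustment and 0.975 after, so it did not pass. It ran from -0.65 without variant 2 replicate 2 to -1.07 without variant 2 replicate 1.

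The close relatives with the same seed had smaller point differences and intervals that include 0. For hsa-miR-320b the signals were 11.71 and 12.02 with variant 1 and 11.81 and 11.57 with variant 2, against 11.76 and 12.04 in mock, a difference of -0.12 (SE 0.328, 95% interval -0.87 to 0.62). For hsa-miR-320d they were 11.80 and 11.74 with variant 1 and 11.91 and 11.28 with variant 2, against 11.64 and 12.10 in mock, a difference of -0.19 (SE 0.352, 95% interval -0.99 to 0.61). In both the groups overlapped, and both intervals hold the value of hsa-miR-320c. The 3 probes, for miRNAs that match over at least 18 bases from the 5′ end, thus gave differences from -0.86 to -0.12 on the same 6 arrays. The probe hsa-miR-320e, a further relative outside the chosen names, differed by -0.12.

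Both arms of the DHX30 mirtron were higher in the variants without passing. hsa-miR-1226, whose known target is the mucin gene MUC1, gave 11.78 and 11.73 with variant 1 and 11.89 and 11.50 with variant 2, against 11.01 and 11.57 in mock. hsa-miR-1226*, its opposite arm, gave 10.88 and 11.19 with variant 1 and 11.36 and 11.13 with variant 2, against 10.78 and 10.85 in mock. The groups overlapped for the first, through mock replicate 2, and did not for the second. The differences were 0.43 (SE 0.343) and 0.32 (SE 0.323), with adjusted p of 0.975 and 0.976 in limma. Without mock replicate 1 the first was 0.15, and without mock replicate 2 it was 0.71.

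The PLEKHJ1 mirtron hsa-miR-1227 gave 9.94 and 10.15 with variant 1 and 9.96 and 10.04 with variant 2, against 9.39 and 9.77 in mock. All 4 variant arrays lay above both mock arrays and close to each other. Its difference of 0.44 (SE 0.325, 95% interval -0.30 to 1.18) had an adjusted p of 0.975 in limma. It was 0.63 when mock replicate 2 was left out and 0.25 when mock replicate 1 was. The RPS6KA4 mirtron hsa-miR-1237 was the only mirtron-named probe whose arrays lay lower without overlap, with 10.17 and 10.18 for variant 1 and 10.13 and 9.96 for variant 2, against 10.31 and 10.25 in mock. Its difference was -0.17 (SE 0.314). The lowest mirtron-named member by value was hsa-miR-877, at -0.40 (SE 0.390), from the intron of ABCF1, a translation factor gene.

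For 4 names a mature-named and a precursor-named probe were both above the level, so that their changes could be set side by side. For miR-484 the point values had opposite signs, but the mature-named one rested on single arrays. hsa-miR-484 gave 8.46 and 8.02 with variant 1 and 8.64 and 7.15 with variant 2, against 8.92 and 8.08 in mock, a difference of -0.43 (SE 0.482). hsa-mir-484-P gave 9.81 and 9.82 with variant 1 and 9.92 and 9.84 with variant 2, against 9.01 and 9.32 in mock. The precursor-named probe was higher on all 4 variant arrays, which lay close together. Its difference was 0.69 (SE 0.319, 95% interval -0.04 to 1.41). In limma its p was 0.0613 before adjustment and 0.975 after, so it did not pass, and the difference ran from 0.53 without mock replicate 1 to 0.84 without mock replicate 2. The mature-named groups overlapped, and variant 2 replicate 2 alone held the lowest value. The mature-named difference was -0.0612 without that array and -0.0149 without mock replicate 1, against -0.85 without mock replicate 2. Mouse-named mmu-miR-484 and mmu-miR-484-P differed by -0.27 and 0.42, the second with -0.30 for variant 1 and 1.13 for variant 2.

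For the other 3 names both probes had the same sign with both variants against mock. hsa-miR-320a and hsa-miR-320a-P differed by -0.15 (SE 0.347) and -0.30 (SE 0.320). hsa-mir-320 and hsa-mir-320-P, older names of the same family, differed by -0.31 (SE 0.336) and -0.14 (SE 0.343). Split by variant, this pair had opposite signs for variant 2 against mock, at -0.50 and 0.18. For variant 2 against variant 1 they differed by -0.38 and 0.65, each without overlap of the arrays, and neither passed. hsa-miR-1233 and hsa-miR-1233-P, of the GOLGA8A and GOLGA8B mirtrons, were both higher, by 0.33 (SE 0.319) and 0.24 (SE 0.313). For miR-1233 neither probe's groups overlapped: the mature-named one gave 8.48 and 8.43 with variant 1 and 8.60 and 8.31 with variant 2, against 8.19 and 8.06 in mock. Its precursor-named probe gave 8.39 and 8.45 with variant 1 and 8.52 and 8.49 with variant 2, against 8.20 and 8.24 in mock. The 2 copies of this hairpin have identical RefSeq sequences, so the probes cannot tell them apart.

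**Figure D4:**
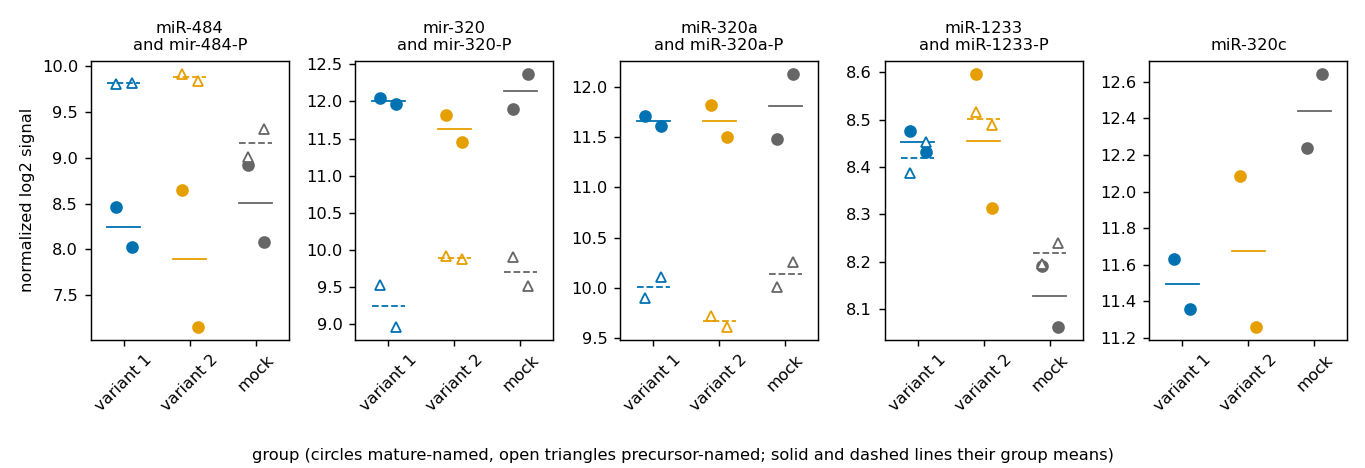
Normalized log2 signal (vertical axes, each panel with its own range that does not start at 0) by group for names with a mature-named (circles) and a precursor-named probe (open triangles) above the random-sequence level, and for miR-320c, 2 arrays a group. The triangles of mir-484-P lie at 9.81 to 9.92 with the variants and at 9.01 and 9.32 in mock, while the circles of miR-484 overlap.

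Opposite arms of 1 hairpin could be compared for 4 mirtron names besides miR-1225, whose 5p arm was not above the level on all arrays. Both arms of miR-1226 and both of miR-1228, in LRP1, were higher (0.29 for hsa-miR-1228 and 0.21 for hsa-miR-1228*). The arms of miR-1224, in VWA5B2, differed by -0.25 (3p) and 0.10 (5p), and those of miR-877 by -0.40 for hsa-miR-877 and 0.08 for hsa-miR-877*. hsa-miR-1236, in the negative elongation factor gene NELFE, differed by 0.19, and hsa-miR-1238, in the autophagy gene ATG4D, by -0.32. Of the precursor-named members, hsa-miR-320b1-P was above the level on none of the arrays and its difference of -0.57 gives no measured fold. None of these passed.

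With variant 1 alone against mock, 15 of 23 mirtron-named probes were higher (median 0.15), where 50.1% of tested probes were higher. Of the 12 probes of miR-320 and miR-484, 10 were lower (median -0.14), where 49.9% were lower. Limma called 0 members and 0.0% of all probes. No member had an unadjusted p under 0.05, against 4.12% of tested probes. The arrays did not overlap for 11 members, 7 of them higher, against 33.8% of tested probes in either direction. Without mock replicate 1, 11 of the 23 mirtron-named probes were higher and their median was -0.0007, and without variant 1 replicate 1 it was -0.0043, again with 11 higher. Without mock replicate 2 the median of the miR-320 and miR-484 probes was 0.05, and 6 of the 12 were higher.

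The members with the smallest p for variant 1 were, on the lower side, hsa-miR-320c (-0.95, SE 0.428), hsa-miR-877 (-0.75, SE 0.451) and hsa-mir-320-P (-0.46, SE 0.396). hsa-miR-877 gave 7.88 and 8.83 with variant 1, against 9.02 and 9.19 in mock, without overlap, and 8.75 and 9.34 with variant 2. Its difference was -0.27 without variant 1 replicate 1 and -1.22 without variant 1 replicate 2. The signals of hsa-mir-320-P were 9.53 and 8.96 with variant 1, against 9.90 and 9.52 in mock, which overlap by a narrow margin, and the difference was -0.18 without variant 1 replicate 2. On the higher side stood hsa-mir-484-P (0.65, SE 0.368), hsa-miR-1234 (0.52, SE 0.382) and hsa-miR-1229 (0.61, SE 0.467). hsa-miR-1234 gave 12.01 and 12.12 with variant 1, against 11.30 and 11.79 in mock, and its difference was 0.27 without mock replicate 1. hsa-miR-1229, from MGAT4B, a gene for a glycosyltransferase, gave 11.74 and 11.93 with variant 1, against 10.62 and 11.84 in mock. Without mock replicate 1, hsa-miR-1229 differed by -0.0007. The 6 had an adjusted p of 0.960 in limma.

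With variant 2 alone against mock, 14 of 23 mirtron-named probes were higher (median 0.22), where 51.3% of tested probes were higher. Of the 12 probes of miR-320 and miR-484, 8 were lower (median -0.24), where 48.7% were lower. Limma called 0 members and 0.0% of all probes. No member had an unadjusted p under 0.05, against 4.79% of tested probes. The arrays did not overlap for 16 members, 10 of them higher, against 33.3% of tested probes in either direction. Both arms of miR-1228 were among the higher ones, as was hsa-miR-1226*. Leaving out mock replicate 1 put the mirtron median at 0.12, and leaving out mock replicate 2 put it at 0.32. Without variant 2 replicate 2 the median of the miR-320 and miR-484 probes was 0.02, and 7 of the 12 were higher.

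The members above the level with the smallest p for variant 2 were hsa-mir-484-P (0.72, SE 0.368) and hsa-miR-320c (-0.77, SE 0.428), each with an adjusted p of 0.938 in limma. The other 4 chosen by the rule were precursor-named probes not above the level on all arrays: hsa-miR-1237-P (0.77), hsa-miR-320b2-P (0.88), hsa-miR-1238-P (-1.06) and hsa-miR-320b1-P (-0.73). The value of hsa-miR-1238-P rested on 1 array, with 6.81 and 4.58 for variant 2, against 7.12 and 6.39 in mock. Without variant 2 replicate 2 it differed by 0.05, and hsa-miR-320c by -0.36. The 4 precursor-named probes give no measured fold.

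The last comparison asked whether the run of 9 T and the run of 8 T differ in their readout. Variant 2 against variant 1 gave 10 of 23 mirtron-named probes higher (median -0.04) and 6 of 12 for miR-320 and miR-484 (median -0.08), where 50.5% of tested probes were higher and 49.5% lower. Limma called 0 members and 0.0% of all probes, with 1 member at an unadjusted p under 0.05, against 4.96% of tested probes. This was hsa-miR-320b2-P (1.50, SE 0.537, adjusted p 0.924 in limma), which was above the level on 1 array only. The arrays did not overlap for 16 members, 8 of them higher, against 35.5% of tested probes in either direction. How much of each variant the cells held was not analysed here, so the length of the run and the amount of the RNA cannot be told apart.

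Among members above the level, hsa-miR-1225-3p had the smallest p of the higher ones, with 9.56 and 10.36 for variant 2, against 9.59 and 8.24 for variant 1. Its difference was 1.04 (SE 0.578, 95% interval -0.27 to 2.36), and its arrays overlapped. It ran from 0.37 without variant 1 replicate 2 to 1.72 without variant 1 replicate 1. hsa-miR-1229 was the lowest above the level, with 11.11 and 10.98 for variant 2, against 11.74 and 11.93 for variant 1. Its difference was -0.79 (SE 0.467, 95% interval -1.85 to 0.27), with no overlap and an adjusted p of 0.924 in limma, while the 2 mock arrays, at 10.62 and 11.84, spanned most of that range. hsa-miR-1234 was lower too, with 11.72 and 11.55 for variant 2, against 12.01 and 12.12 for variant 1, a difference of -0.43 (SE 0.382). The 3 higher members with the smallest p for both variants against mock had small point differences between the variants. These were -0.06 for hsa-miR-1226 (95% interval -0.96 to 0.84), -0.04 for hsa-miR-1227 (-0.89 to 0.81) and 0.07 for hsa-mir-484-P (-0.77 to 0.90). Other members higher with each variant than in mock varied: hsa-miR-1233 differed by 0.001 (-0.84 to 0.84), but hsa-miR-1228 by 0.54 (-0.29 to 1.38) and hsa-miR-1234 by the -0.43 given above. These intervals are wide, so they do not show that the variants act alike.

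Mouse-named probes gave a second reading for 4 of the names. Of 8 such probes, 6 were above the level on all 6 arrays. The others were mmu-miR-484, above it on 5 arrays, and mmu-miR-1224, above it on 3. With signals from 6.21 to 6.95, mmu-miR-1224 gives no measured fold. With both variants against mock, mmu-miR-320 differed by -0.35, mmu-mir-320-P by -0.24, mmu-miR-877 by -0.15 and mmu-miR-877* by 0.30, and mmu-miR-1224 and mmu-miR-1224-P by 0.05 and 0.02. Split by variant, mmu-mir-320-P differed by 0.11 (variant 1) and -0.58 (variant 2), opposite in sign to hsa-mir-320-P at -0.46 and 0.18. They share the arrays with the human-named probes and were not tested.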

How the data were processed

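Per the labels' protocols, total RNA was isolated with Trizol and treated to remove DNA, and 4 µg per sample were reverse transcribed from a biotinylated random octamer. The deposited table holds log2 signals of 2997 probes on 6 arrays, normalized by the authors. The log base was inferred from the range of the values. The submitters' processing notes name limma. The sources used here give neither the background correction nor the normalization method.

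A limma model (version 3.58.1, R 4.3.3) with 1 mean per group was fitted to all 6 arrays over 1741 human miRNA and 32 ultraconserved-region probes, with 3 residual and 5.71 prior degrees of freedom. P-values were two-sided and adjusted by the Benjamini-Hochberg method over these 1773 probes, with a threshold of 0.05. The 2 arrays per group limit the precision. Mouse-named, mismatch and control probes stayed outside the fit, which was tested on simulated data. Lists are described by counts and medians. The members and lists were chosen with earlier results of these data known. The named members are the 3 higher and 3 lower with the smallest p in each comparison, and names with both a mature-named and a precursor-named probe above the random-sequence level. The other members named were added after their values were seen. Alternatives were other scalings, priors, filters and probe sets, and leaving out each array. Sequences, coordinates and overlapping genes are RefSeq's (GRCh38.p14), matched by name.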

Additional observations from a re-analysis of the deposited data

Results flagged for a closer look

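For hsa-miR-1237-P, the 2 variants lay on opposite sides of both mock arrays, with 7.23 and 8.37 for variant 2 and 6.95 and 6.75 for variant 1, against 7.08 and 6.97 in mock. Variant 2 exceeded variant 1 by 0.95 (SE 0.456, unadjusted p 0.0689, adjusted p 0.924 in limma), so the difference did not pass. The probe was above the random-sequence level on 4 of the 6 arrays.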

How the results depend on the processing

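With all arrays kept, no sign changed in 280 values (45 pairs of a probe and a comparison under the other settings). Only the other scalings could have changed one. Another prior, filter or probe set, or fitting only the groups compared, leaves a probe's difference as it was. The smallest adjusted p among the 280 was 0.518 in limma. Of 270 values with 1 array left out, 15 changed sign, and the smallest adjusted p was 0.722 in limma, so none of either kind passed. A trended prior called 1 probe with both variants against mock (hsa-miR-1260b, adjusted p 0.0469 in limma). Centring on the random-sequence probes put the miR-320 and miR-484 median for variant 1 against mock at -0.21, and keeping only probes above the level put that for variant 2 against variant 1 at -0.17. With single arrays left out, the median of the miR-320 and miR-484 probes ran from -0.41 to -0.0296 with both variants against mock, from -0.31 to 0.0488 for variant 1, from -0.43 to 0.024 for variant 2, and from -0.27 to 0.19 for variant 2 against variant 1. Single probes that changed sign, with both variants against mock, were hsa-miR-1224-3p (-0.57 to 0.0654), hsa-miR-1225-3p (-0.41 to 0.64), hsa-miR-1228* (-0.0257 to 0.45), hsa-miR-1229 (-0.40 to 0.82), hsa-mir-320-P (-0.33 to 0.0494), hsa-miR-320a (-0.47 to 0.18), hsa-miR-320b (-0.26 to 0.0155), hsa-miR-320d (-0.42 to 0.0377) and hsa-miR-877* (-0.38 to 0.53). So did hsa-miR-1229 for variant 1 (-0.0007 to 1.21) and hsa-miR-1238-P for variant 2 (-2.17 to 0.0533). The cause was not tested. Fitting only the groups compared gave no separate value for both variants against mock, which uses all of them. With 2 arrays per group a difference of the size seen could not be told from the spread between arrays, and a probe near the random-sequence level gives no measured fold. No paired analysis was possible because the labels give no replicate numbers: those used here were given in array order within each group, name an array only, and pair nothing.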
